A study of Homo sapiens with 6 samples.

Results

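The genes described here make, break down and bind hyaluronan in U87, an established human glioblastoma cell line, and were chosen from counts that compare knockdown of the long noncoding RNA LINC00152 with a control siRNA. They are 9 of the 27192 genes listed: the synthases HAS1, HAS2 and HAS3, the hyaluronidases HYAL1, HYAL2 and HYAL3, the hyaluronan-degrading proteins CEMIP and TMEM2, and the receptor CD44. The set was picked for the large fall of HAS1 in this same comparison, so every fold change of a member, and whether it passed the threshold, is a description and carries no p-value. In the siLINC00152 group (3 libraries), cells received a mixture of 2 siRNAs against LINC00152, and in the siGL2 group (3 libraries) a nonspecific siRNA. All cells were transfected in 2 rounds set 24 hours apart and were harvested 24 hours after the second. RNA was polyA-selected and sequenced as paired reads of 75 bases. U87 is 1 cell line, the 2 siRNAs were used only together, and whether replicates A, B and C came from separate cultures is not stated. Errors and p-values therefore measure only the spread between these libraries, which may be technical.

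Hyaluronan is a long, unbranched sugar polymer of the extracellular matrix and a main component of the matrix of the brain. The HAS enzymes sit in the plasma membrane, join sugar units taken from UDP-glucuronic acid and UDP-N-acetylglucosamine, and push the growing chain out of the cell. Secreted, surface-bound and lysosomal enzymes cut it down again, and CD44 holds it at the surface of many cells, mesenchymal glioma cells among them.

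LINC00152 itself had 114, 112 and 109 counts in the siLINC00152 libraries, against 650, 608 and 776 in the siGL2 libraries, and stood at 17.6% of its control level. Other annotated genes, MIR4435-2HG foremost, hold 20.7% of its 75-base stretches, and how such shared reads were counted is not stated. Total counts per library were 41963120 to 43713662 in the siLINC00152 group and 42139419 to 46234763 in the siGL2 group. Replicate siGL2 A stood apart from its group: chi-square per degree of freedom over genes was 11.5 and 14.5 against siGL2 B and C, while the other 4 pairs within groups lay between 3.02 and 6.06. Of 6 glial markers only SLC1A3 reached 1 CPM (CPM, the count scaled by library total and TMM factor), and GFAP, S100B, AQP4, OLIG2 and SOX2 lay below it in every library, whereas VIM, FN1, COL1A1 and CD44 were abundant in all 6. Summed over the 6 glial markers, the level was 31.0 to 35.6 CPM in the siLINC00152 libraries and 43.6 to 46.2 CPM in the siGL2 libraries. Of the markers of other cell types, 2 of 4 neuronal ones (SNAP25 and SYT1), 2 of 4 endothelial ones (PECAM1 and KDR), 1 of 4 immune ones (CD68) and 2 of 4 epithelial ones (EPCAM and CLDN4) reached 1 CPM, while AIF1 and KRT5 were at 0 in every library and PTPRC reached no more than 0.0922 CPM. The summed level of the neuronal markers was 51.4 to 56.9 CPM in the siLINC00152 libraries and 75.1 to 77.6 CPM in the siGL2 libraries, and that of the immune markers 286.5 to 312.6 CPM after knockdown and 331.0 to 334.9 CPM in the control. Endothelial markers summed to 2.91 to 3.09 CPM after knockdown and 7.06 to 8.27 CPM in the control, and epithelial markers to 2.25 to 2.73 CPM after knockdown and 2.33 to 2.65 CPM in the control. The mesenchymal markers, CD44 included, summed to 15267 to 15865 CPM in the siLINC00152 libraries and 17122 to 17601 CPM in the siGL2 libraries. Members of these lists differed in direction. VIM and CD44 were lower after knockdown, whereas COL1A1 lay at 672.7 to 768.1 CPM in the siLINC00152 libraries and 404.8 to 454.5 CPM in the siGL2 libraries, and the ranges of FN1 overlapped. Among the endothelial markers KDR lay at 1.08 to 1.31 CPM after knockdown and 5.14 to 5.67 CPM in the control, and VWF at 0.704 to 0.755 CPM after knockdown and 0.208 to 0.402 CPM in the control. The part of these markers in the results below was not tested.

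Compared with the siGL2 libraries, the siLINC00152 libraries held far less RNA for HAS1 and HAS2 and somewhat more for HAS3, HYAL3 and TMEM2. Differences in HYAL2, CEMIP and CD44 were small. As the siRNAs were used only together, loss of LINC00152 and off-target effects of the siRNAs cannot be told apart. Of the 9 genes, 8 had enough counts to be tested. Of these, 4 were higher and 4 lower at an adjusted p under 0.05 (edgeR quasi-likelihood test, Benjamini-Hochberg adjustment over all 14078 tested genes), and HAS1 and HAS2 were lower by at least 2-fold. The background is wide: 64.3% of all tested genes passed, 32.2% upward and 32.2% downward, and 3.53% passed with a fall of at least 2-fold. The groups did not overlap in CPM for any of the 8, as for 67.7% of all tested genes. The median log2 fold change was 0.0096 over the 8 genes and −0.0011 over all tested genes. Without siGL2 replicate A the log2 fold changes were −2.36 for HAS1, −1.36 for HAS2, 0.51 for HAS3, −0.16 for HYAL2, 0.55 for HYAL3, 0.21 for CEMIP, 0.95 for TMEM2 and −0.32 for CD44. A fall in a bulk sample may mean fewer cells that express a gene or less RNA in each, and these cannot be told apart.

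**Figure D1:**
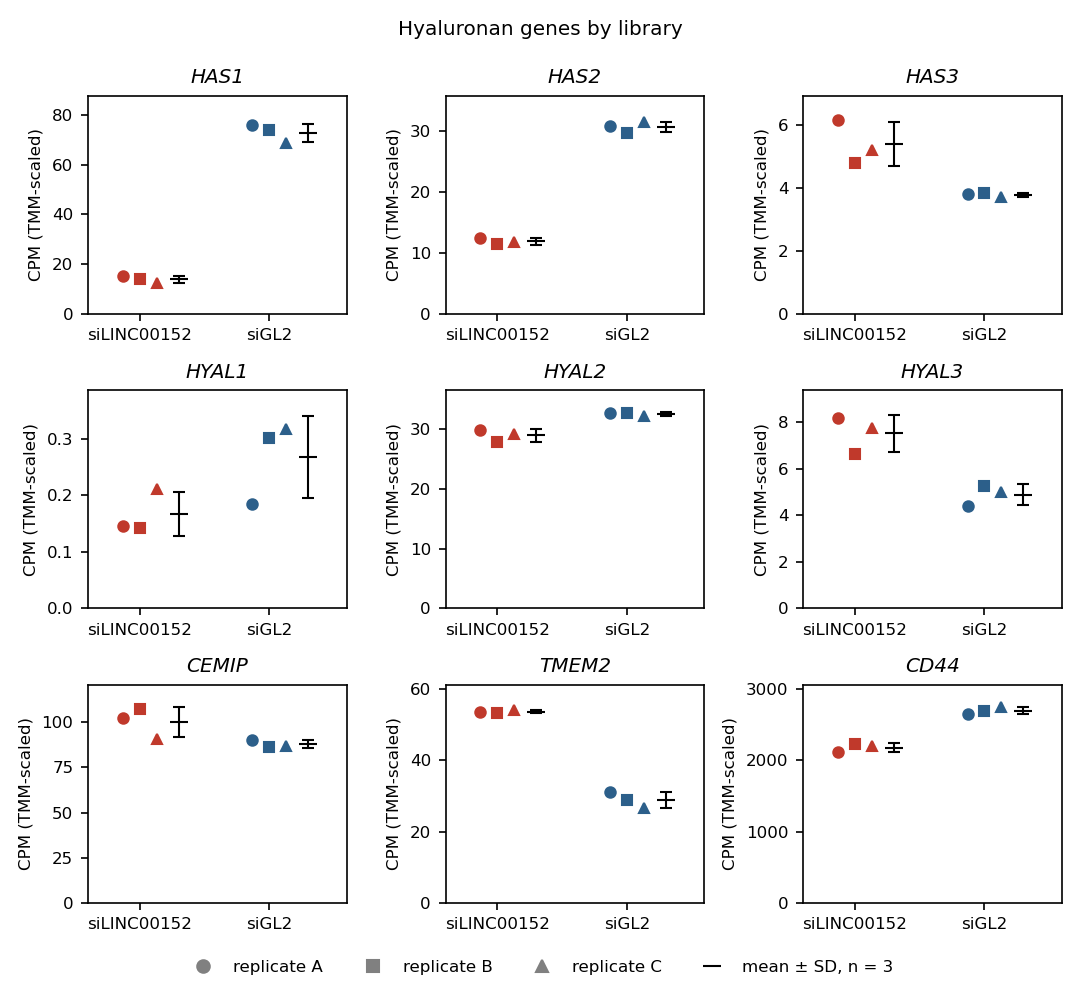
TMM-scaled CPM of each of the 9 genes in every library, one panel per gene with its own axis starting at 0. Red symbols are the 3 siLINC00152 libraries, blue symbols the 3 siGL2 libraries, and black bars the mean ± SD. HAS1 lies at 12.5 to 15.3 CPM in the siLINC00152 libraries and 68.8 to 75.8 CPM in the siGL2 libraries, and HYAL1 is the gene whose groups overlap.

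HAS1 is the synthase that changed most. Its counts were 629, 585 and 534 in the siLINC00152 libraries, against 3291, 3187 and 3254 in the siGL2 libraries. All 3 knockdown libraries thus lay far below all 3 controls, and the spread within either group was small beside the gap. As CPM this was 13.9 ± 1.39 in the siLINC00152 group and 72.8 ± 3.62 in the siGL2 group (SD, n = 3 each). The log2 fold change was −2.39 ± 0.07 (SE), with a 95% confidence interval of −2.52 to −2.25, a fall of 5.23-fold. HAS1 (ENSG00000105509.10) lies on the minus strand at chr19:51713112-51723994 (GRCh38), and none of its exonic bases or 75-base stretches is shared with another annotated gene. By abundance it ranked 8454 of 27192 in the siLINC00152 group and 3275 in the siGL2 group.

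HAS2, the main synthase in many mesenchymal cells, fell as well. It had 511, 478 and 503 counts in the siLINC00152 libraries, against 1331, 1282 and 1484 in the siGL2 libraries. The groups were again clear of each other, with 11.9 ± 0.537 CPM in the siLINC00152 group and 30.6 ± 0.854 CPM in the siGL2 group (SD, n = 3 each). The log2 fold change was −1.36 ± 0.06 (SE, 95% confidence interval −1.49 to −1.24). HAS2 lies on chromosome 8, and 4.80% of its exonic bases overlap HAS2-AS1, a noncoding RNA of the opposite strand. HAS2-AS1 had 150, 171 and 138 counts in the siLINC00152 libraries and 162, 171 and 191 in the siGL2 libraries, which overlap. Its log2 fold change of −0.10 ± 0.11 (SE) did not pass, with a 95% confidence interval of −0.33 to 0.13. The ratio of HAS2 to HAS2-AS1 counts was 3.28 ± 0.438 in the siLINC00152 group and 7.83 ± 0.363 in the siGL2 group (SD, n = 3 each).

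HAS3, the least abundant of the 3 synthases, went the other way. It had 254, 202 and 222 counts in the siLINC00152 libraries, against 166, 166 and 176 in the siGL2 libraries. Every knockdown library was above every control, and siLINC00152 A was the highest. The level was 5.40 ± 0.708 CPM in the siLINC00152 group and 3.80 ± 0.0658 CPM in the siGL2 group (SD, n = 3 each), a log2 fold change of 0.51 ± 0.11 (SE, 95% confidence interval 0.29 to 0.73). HAS3 lies on the plus strand at chr16:69105564-69118719, and 6.90% of its exonic bases overlap CHTF8 of the opposite strand.

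Per length of exon, the summed level of the 3 synthases was 10.1 ± 0.812 CPM per kb in the siLINC00152 group and 40.5 ± 1.51 CPM per kb in the siGL2 group (SD, n = 3 each), a 4.02-fold difference. HAS1 made up 61.7% ± 1.90 of that sum in the siLINC00152 libraries and 80.2% ± 1.08 in the siGL2 libraries. The share of HAS2 was 28.2% ± 1.56 after knockdown and 18.0% ± 1.05 in the control. HAS3 held 10.1% ± 0.773 after knockdown and 1.77% ± 0.0421 in the control. Per length, HAS1 stood at 2.19 ± 0.179 times the level of HAS2 in the siLINC00152 libraries and 4.46 ± 0.310 times in the siGL2 libraries, so HAS1 remained the leading synthase RNA in all 6 libraries.

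**Figure D2:**
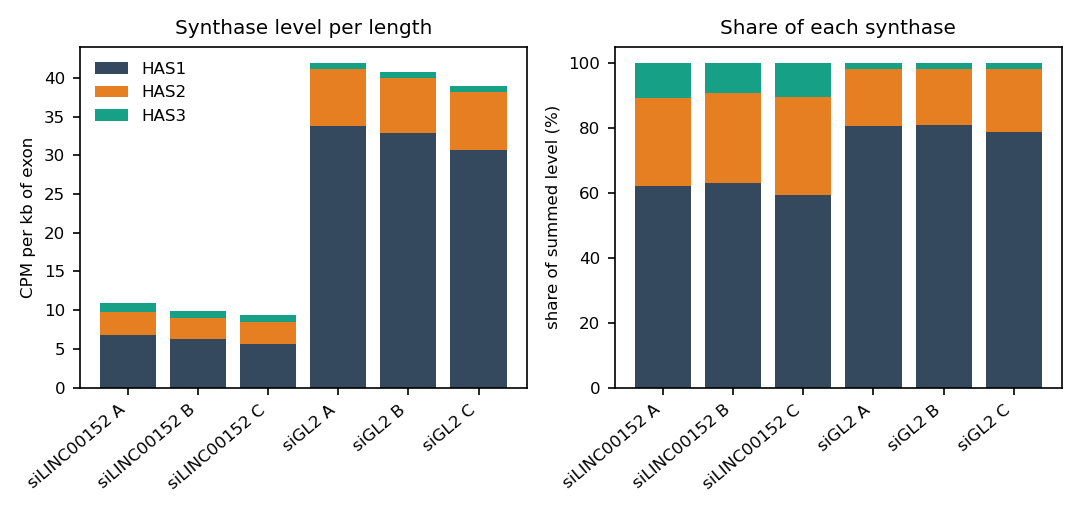
Left, level of each synthase in CPM per kb of exon, stacked for each library. Right, the share of each synthase in that sum, in percent. The summed level averaged 10.1 CPM per kb in the siLINC00152 libraries and 40.5 CPM per kb in the siGL2 libraries, and the share of HAS3 was 10.1% after knockdown and 1.77% in the control.

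The bases just before the RefSeq start of HAS1 and HAS3 are shown because these synthases lie at opposite ends of the change within the family. RefSeq promoter windows (GRCh38.p14) were matched for 8 of the 9 genes. HAS2 had no matched window, so it was not searched for any motif. In the other 8 genes, the 250 bases before the start were searched on both strands for 5 motifs. The TATA box was searched as TATAAA, and the GC box as GGGCGG. The cyclic AMP response element was searched as TGACGTCA. The AP-1 motif was searched as TGACTCA, and the E-box as CACGTG. For HAS3 the RefSeq start lies inside the GENCODE 29 gene given above, which begins further upstream, so its window falls within those coordinates. Capitals mark the cyclic AMP response element or E-box and the GC box, which reads CCGCCC here, and none of the marked motifs overlap.
HAS1, chr19:51723992-51724241, minus strand: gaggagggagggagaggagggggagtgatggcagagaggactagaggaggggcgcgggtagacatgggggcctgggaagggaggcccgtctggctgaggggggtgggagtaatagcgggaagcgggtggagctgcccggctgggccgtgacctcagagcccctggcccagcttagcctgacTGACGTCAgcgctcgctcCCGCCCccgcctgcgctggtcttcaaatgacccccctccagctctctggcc
HAS3, chr16:69107290-69107539, plus strand: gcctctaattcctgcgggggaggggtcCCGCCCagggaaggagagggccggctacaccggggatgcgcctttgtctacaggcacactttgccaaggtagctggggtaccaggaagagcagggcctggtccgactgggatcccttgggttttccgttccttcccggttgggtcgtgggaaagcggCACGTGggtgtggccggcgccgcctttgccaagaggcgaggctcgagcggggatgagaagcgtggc
Among the 8 genes, TGACGTCA occurred in the HAS1 window alone, and it occurs in 1.65% of 35116 windows of the same length. CACGTG occurred in the HAS3 window alone, against 6.34% of all windows. GGGCGG was found in 7 of the 8 genes, HYAL2 being the one without it, and in 42.6% of all windows. TATAAA was found for CEMIP, against 10.7% of all windows, and TGACTCA for none of the 8, against 4.20%. A gene counted as having a motif if any of its windows held it, whereas the shares are of single windows. These matches describe letters and do not show that a factor binds.

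The 3′ UTRs of the synthases also differ. The longest annotated 3′ UTR has 315 bases in HAS1, 1993 in HAS2 and 2402 in HAS3. The word TGGTGCT, the match to the seed of the miR-29 family, which targets many matrix genes, was absent from HAS1, occurred at 1 place in HAS2 and occurred at 3 places in HAS3. It was looked for because earlier results of these data had pointed to it. The mature miR-29 sequences (RefSeq) are shown with the seed, bases 2 to 8, in capitals, and all carry the same seed.
hsa-miR-29a-3p: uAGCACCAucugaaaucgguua
hsa-miR-29b-3p: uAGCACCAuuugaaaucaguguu
hsa-miR-29c-3p: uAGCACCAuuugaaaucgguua
The matches in HAS3, CEMIP and TMEM2 are shown in windows of 30 bases of the transcript strand (GRCh38), with the word in capitals.
HAS3, match 1, chr16:69115814-69115843: agggtccaggaaTGGTGCTttatgtgagat
HAS3, match 2, chr16:69115951-69115980: aagagattgtggTGGTGCTaaaggaggcca
HAS3, match 3, chr16:69116961-69116990: atgggcaaacccTGGTGCTttccttcatct
CEMIP, match 1, chr15:80949071-80949100: tatcagagacccTGGTGCTgccacctgccc
CEMIP, match 2, chr15:80950551-80950580: gcaactccccatTGGTGCTacctggctctc
TMEM2, match 1, chr9:71704713-71704742: cgtccaaccctaTGGTGCTccgaggtatta
CD44 (3069 bases), HYAL1, HYAL2 and HYAL3 held no match. Matches and direction did not run together throughout, since HAS2 fell with 1 match and HYAL3 rose with none. Of 11364 tested genes that averaged 1 CPM or more and had an annotated 3′ UTR, 19.6% held the word, and 87 genes, or 0.766%, held it at 3 places or more. The median log2 fold change was 0.32 in those 87 genes, 0.10 in the 313 genes with 2 matches, 0.10 in the 1822 genes with 1 match and −0.02 in the 9142 genes without the word. The median 3′ UTR was longer with more matches, at 4952 bases in the 87 genes, 3831 with 2 matches, 2811 with 1 match and 1480 without the word. Since earlier results of these data had pointed to the word, the medians of fold change are a description and not a test. Mature microRNAs were not measured, and a part of miR-29 was not tested.

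The enzymes that break hyaluronan down changed less than HAS1 and HAS2. TMEM2, a transmembrane protein with hyaluronan-cutting activity in the mouse, rose the most. It had 2203, 2233 and 2308 counts in the siLINC00152 libraries, against 1343, 1251 and 1253 in the siGL2 libraries. The 3 knockdown libraries lay close together and well above the controls, at 53.7 ± 0.527 CPM against 28.8 ± 2.23 CPM (SD, n = 3 each). The log2 fold change was 0.90 ± 0.06 (SE, 95% confidence interval 0.78 to 1.02), or 1.86-fold. TMEM2, now named CEMIP2, lies on the minus strand at chr9:71683366-71816690.

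CEMIP, a secreted hyaluronan-binding protein needed for its breakdown by fibroblasts, had 4214, 4501 and 3874 counts in the siLINC00152 libraries, against 3913, 3737 and 4119 in the siGL2 libraries. After scaling, the lowest knockdown library, siLINC00152 C at 91.0 CPM, lay just above the highest control, siGL2 A at 90.2 CPM. The log2 fold change was 0.19 ± 0.05 (SE, 95% confidence interval 0.08 to 0.30). It did not pass with library size alone as the scale, at 0.12, or without siLINC00152 replicate B, at 0.14. CEMIP lies on the plus strand at chr15:80779343-80951776.

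HYAL1, HYAL2 and HYAL3 lie close together on the minus strand of chromosome 3, between 50292831 and 50322906, yet differed in level and in direction. HYAL1, the lysosomal hyaluronidase, was barely detected, with 6, 6 and 9 counts in the siLINC00152 libraries and 8, 13 and 15 in the siGL2 libraries. These overlap, and HYAL1 had too few counts to be tested. HYAL2, which is anchored at the cell surface and cuts long chains into fragments, had 1222, 1168 and 1244 counts after knockdown, against 1420, 1415 and 1519 in the control. It fell slightly, by 0.17 ± 0.05 on the log2 scale (SE, 95% confidence interval −0.28 to −0.06), and without siLINC00152 replicate B it did not pass, at −0.14. HYAL3, whose own activity in cells is unclear, had 335, 278 and 330 counts in the siLINC00152 libraries and 190, 227 and 237 in the siGL2 libraries. Its level was 7.51 ± 0.798 CPM after knockdown and 4.88 ± 0.452 CPM in the control (SD, n = 3 each), a log2 fold change of 0.62 ± 0.10 (SE, 95% confidence interval 0.41 to 0.83).

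Reads of this cluster can be hard to assign, since genes of the same strand share exonic bases. TUSC2 overlaps 11.2% of the exonic bases of HYAL2, and it rose by 0.36 ± 0.06 on the log2 scale (SE) while HYAL2 fell. NAA80 and IFRD2 overlap 14.3% of those of HYAL3. IFRD2 did not pass, at −0.07 ± 0.05, nor did the counts listed as NAT6, at −0.19 ± 0.11. RefSeq gives NAT6 as an older symbol of both NAA80 and HYAL1, so it was not matched to either.

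CD44 was by far the most abundant of the 9 genes. It had 86766, 93431 and 93692 counts in the siLINC00152 libraries, against 115205, 116061 and 129959 in the siGL2 libraries. Every knockdown library lay below every control, at 2179 ± 58.4 CPM against 2696 ± 47.1 CPM (SD, n = 3 each). The log2 fold change was −0.31 ± 0.04 (SE, 95% confidence interval −0.40 to −0.22), which left 80.8% of the control level. CD44 (plus strand, chr11:35138870-35232402) ranked 26 of 27192 genes by CPM in the siLINC00152 group and 18 in the siGL2 group. Counts per gene do not separate its splice forms, of which the annotation lists 39 transcripts.

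**Figure D3:**
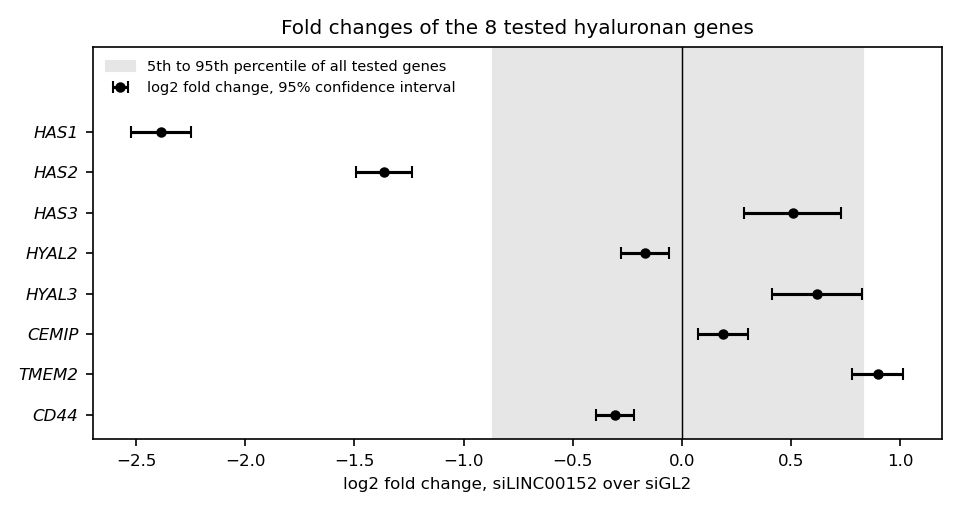
Log2 fold change of the 8 tested genes, siLINC00152 over siGL2, with 95% confidence intervals. The grey band holds the 5th to 95th percentile of all tested genes, from −0.87 to 0.83. HAS1 at −2.39 and HAS2 at −1.36 lie below the band, and TMEM2 at 0.90 lies just above it.

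The order of the levels per length of exon changed with knockdown. In the siLINC00152 libraries CD44 led at 217.8 ± 5.83 CPM per kb, followed by CEMIP at 13.2 ± 1.09, HYAL2 at 6.36 ± 0.222, HAS1 at 6.21 ± 0.620 and TMEM2 at 5.57 ± 0.0547 CPM per kb (SD, n = 3). There the ranges of HYAL2 and HAS1 overlapped, as did those of HAS1 and TMEM2, while HYAL3, HAS2, HAS3 and HYAL1 followed without overlap between neighbours. In the siGL2 libraries CD44 at 269.5 ± 4.71 CPM per kb was followed by HAS1 at 32.5 ± 1.62, CEMIP at 11.5 ± 0.259, HAS2 at 7.30 ± 0.204 and HYAL2 at 7.16 ± 0.0794 CPM per kb. Only HAS2 and HYAL2 overlapped among neighbours in that group, and TMEM2, HYAL3, HAS3 and HYAL1 followed. By exon union, HAS1 thus held place 4 after knockdown and place 2 in the control. This order was not repeated with the longest transcript, which has 6523 bases in TMEM2 (exon union 9625) and 2110 in HAS1 (exon union 2241). Places of genes close in level may depend on the length used. Summed over HYAL1, HYAL2, HYAL3, CEMIP and TMEM2, the level was 28.8 ± 0.895 CPM per kb in the siLINC00152 group and 24.2 ± 0.331 CPM per kb in the siGL2 group.

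Other genes of the pathway were taken from 6 lists of 54 genes, of which 37 were tested. Among these 37, 17 were called higher, 12 lower and 8 neither, and their median log2 fold change was 0.01, beside the background shares of 32.2% upward and 32.2% downward given above. Genes that supply the sugar precursors were mostly higher. Of 8 tested, 5 rose, 2 fell and UGDH, which makes UDP-glucuronic acid, did not pass at −0.09 ± 0.05 (SE), with a median of 0.24. GFPT1, the entry enzyme of the hexosamine pathway, rose by 0.68 ± 0.04 on the log2 scale, with 212 ± 4.02 CPM in the siLINC00152 group and 132 ± 3.45 CPM in the siGL2 group. UAP1, which makes UDP-N-acetylglucosamine, rose by 0.56 ± 0.05. GNPNAT1, an acetyltransferase of the same pathway, fell by 0.72 ± 0.05, and 35.6% of its exonic bases overlap a gene of the opposite strand.

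Lysosomal glycosidases changed little. HEXA, a subunit of beta-hexosaminidase, rose by 0.18 ± 0.05 on the log2 scale (SE), and the beta-glucuronidase GUSB did not pass, at 0.01 ± 0.05. Other genes hold 12.3% of the 75-base stretches of HEXA. HYAL4, SPAM1 and HYALP1 had at most 2 counts in any library. HYALP1 had 0 in all 6, which allows up to 3 counts, or 0.0649 to 0.0715 CPM by library total, by counting error alone.

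Of the other receptors, 4 of 7 were tested, of which 3 fell and 1 rose. LAYN, layilin, fell by 0.83 ± 0.10 on the log2 scale (SE), with 3.90 ± 0.124 CPM in the siLINC00152 group and 6.96 ± 0.968 CPM in the siGL2 group. HMMR, which also takes part in the mitotic spindle, fell by 0.18 ± 0.05. TLR4, an innate immune receptor that responds to hyaluronan fragments, rose by 0.35 ± 0.07. LYVE1, STAB2 and TLR2 had no more than 6 counts in any library.

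Among 16 genes listed for proteins that bind hyaluronan in the matrix or act with it there, 6 were tested. Of these, 2 rose, 3 fell and BCAN did not pass at −0.08 ± 0.26 (SE). The falls include ITIH4, which shares 73.6% of its exonic bases with a gene of the same strand. ITIH4 lost its call in 3 of 11 alternatives. VCAN, versican, a large proteoglycan that binds hyaluronan chains, rose by 0.55 ± 0.06 on the log2 scale, with 1782 ± 77.8 CPM in the siLINC00152 group and 1216 ± 113.5 CPM in the siGL2 group. HAPLN3, a link protein that fastens proteoglycans to hyaluronan, was 2.01-fold higher, with 4.53 ± 0.388 CPM in the siLINC00152 group and 2.26 ± 0.146 CPM in the siGL2 group. PTX3, a pentraxin that stabilises the hyaluronan matrix around the oocyte, had 441, 476 and 519 counts in the siLINC00152 libraries and 1121, 1304 and 1342 in the siGL2 libraries. The 2 groups of PTX3 values were far apart, and it fell by 1.30 ± 0.07. The other 10 genes of this list, aggrecan and neurocan among them, had at most 2 counts in any library.

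Of 13 partners, ligands, sheddases and splicing factors of CD44, 12 were tested, of which 6 rose, 4 fell and IQGAP1 and ESRP2 did not pass. SPP1, osteopontin, a secreted ligand of CD44, had 2222, 2172 and 2319 counts in the siLINC00152 libraries, against 7334, 8192 and 9329 in the siGL2 libraries. It fell by 1.79 ± 0.06 on the log2 scale (SE), or 3.47-fold. ADAM17, a protease that sheds membrane proteins including CD44, rose by 1.26 ± 0.05, with 128 ± 4.85 CPM in the siLINC00152 group and 53.4 ± 1.81 CPM in the siGL2 group, and opposite-strand genes cover 13.6% of its exonic bases. MMP14, a membrane protease that also cleaves CD44, fell by 0.47 ± 0.04.

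**Figure D4:**
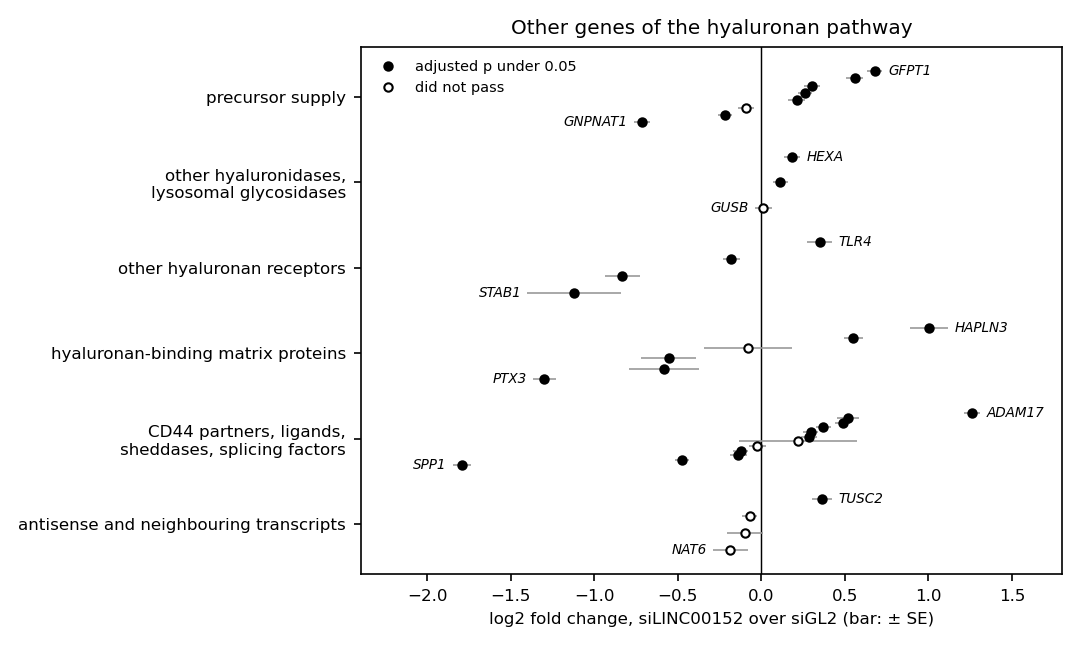
Log2 fold change, siLINC00152 over siGL2, of the 37 tested genes in the 6 pathway lists, with bars of ± SE. Filled points passed at an adjusted p under 0.05 and open points did not. The lowest and highest gene of each list are named, from SPP1 at −1.79 to ADAM17 at 1.26.

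Within 100 kb of HAS1, 4 other genes had enough counts to be tested. FPR1, a receptor for formylated peptides that lies 21178 bases from HAS1 on the same strand, fell by 1.32 ± 0.06 on the log2 scale (SE), with 21.7 ± 0.662 CPM in the siLINC00152 group and 54.1 ± 3.92 CPM in the siGL2 group. SPACA6, 725 bases away on the opposite strand, did not pass at −0.02 ± 0.07, with a 95% confidence interval of −0.16 to 0.12. SPACA6P-AS at −0.14 ± 0.13 and ZNF577 at 0.04 ± 0.12 did not pass either. HAS1 and FPR1 were thus both lower in every knockdown library than in any control, while the groups of SPACA6 overlapped.

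Genes whose pattern over the 6 libraries was among the most like that of HAS1, by the root mean square difference in centred log2 CPM among 12265 tested genes averaging 1 CPM or more, were the cation channel gene TRPV2 (0.0875 on the log2 scale), LINC00152 (0.122), TMEM71 (0.134) and PLEKHG4B (0.153). Their log2 fold changes lay between −2.51 in LINC00152 and −2.12 in PLEKHG4B, around the −2.39 of HAS1. With 2 groups of 3, this measure ranks genes mainly by the size of their fall.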

How the data were processed

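PolyA RNA of 3 siLINC00152 and 3 siGL2 libraries was made into directional libraries and read from both ends, per the labels' protocols. The authors deposited raw read counts per gene symbol, and the submitters' processing notes name bcl2fastq, HISAT, HTSeq and DESeq and the build hg38. For tool versions, annotation and strand setting of the counting, nothing is given in the sources used here. With 41963120 to 46234763 counts per library, a count of 0 allows up to 3 counts by counting error. Genes were tested with edgeR 4.0.16 (quasi-likelihood, TMM, filterByExpr with a minimum count of 10) in R 4.3.3, with Benjamini-Hochberg adjustment over 14078 genes. CPM per kb uses the exon union of GENCODE 29 (GRCh38), to which 24729 of 27192 symbols matched, 520 by an older symbol. Members and lists were chosen with earlier results of these data known. Named were all members, up to 3 genes of each list, those of smallest p that averaged 1 CPM or more, genes overlapping members, tested genes within 100 kb of HAS1 and the 5 genes most like it. Of the genes this rule takes, 2 are not reported here. Alternatives were DESeq2 1.42.0, library size alone, no filter, a replicate block, leaving out each library and the length of the longest transcript.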

Additional observations from a re-analysis of the deposited data

How the results depend on the processing

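No result changed direction among those called. The number of genes past the threshold was 9058 and lay between 8294 and 9336 over 11 alternatives, 8294 to 9336 being also the range when each library was left out. Of the genes called, 4529 were higher and 4529 lower, against 3755 higher and 5389 lower with library size alone. HAS1 kept a log2 fold change of −2.46 to −2.32, HAS2 of −1.43 to −1.33, HAS3 of 0.40 to 0.59, HYAL3 of 0.55 to 0.70, TMEM2 of 0.83 to 0.95 and CD44 of −0.37 to −0.28, each past the threshold in all 11. HYAL2 was −0.19 to −0.14 when a library was left out and lost its call without siLINC00152 replicate B. CEMIP was 0.14 to 0.26 when a library was left out, losing its call without siLINC00152 replicate B, and 0.12 with library size alone, which also lost it and moves the median of all genes by −0.07. The cause was not tested. With the length of the longest transcript in place of the exon union, the share of HAS2 was 26.5% after knockdown, and that of HAS3 was 11.9% after knockdown and 2.11% in the control.

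With the letter as a replicate block, 9155 genes passed and no call of a member was lost. Deviations from the group means correlated at 0.0818, −0.0129 and 0.0698 between libraries of the same letter, none over 0.1, so the letters were not treated as pairs. As a hint from the data only, 4 of 6 libraries correlated best with their own letter, and what the letters stand for is not stated. HYAL1 is limited by depth, with at most 15 counts in any library.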
